A study of Gallus gallus with 15 samples.

Results

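Corticosterone and testosterone were compared directly in the germinal disc region of laying hens, with 5 pools of RNA for each hormone. These 10 libraries were taken by their labels from the 15 of the study, and the other 5, from hens given the oil vehicle, served only to place a control level beside the hormones. White Leghorn hens were injected 5 h before the ovulation predicted from their laying records with 1.5 mg of corticosterone in 0.5 ml of peanut oil, with 1.5 mg of testosterone in the same volume, or with the oil alone. Discs were taken from the F1 follicle, the largest one and the next to ovulate, about 1.5 h later, that is 3.5 h before ovulation. Each library held RNA of several hens: 8 discs according to the source names and 9 according to the extraction protocol. The p-values below therefore measure the spread between pools and not that between hens. No age was given in the labels, and all hens were of 1 breed and sex.

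Both hormones are steroids that act through closely related nuclear receptors, the glucocorticoid receptor and the androgen receptor, which recognise similar DNA elements. Corticosterone, the main glucocorticoid of birds, carries a hydroxyketone side chain and a ring hydroxyl that testosterone lacks. Testosterone is made in the follicle wall itself, and aromatase can convert it to oestradiol. The germinal disc holds the oocyte nucleus, and because the hen is the sex with unlike sex chromosomes, the division before ovulation decides which of them the egg receives. The study asked whether the hormones change the expression of genes that act in chromosome segregation. The doses were equal by mass and the collection time was the same, so the contrast of corticosterone with testosterone was 1 pair of compounds at 1 dose and 1 time.

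The deposited table lists 24881 Ensembl chicken gene identifiers without names, and the reference table of chicken genes matched 0 of them. No gene is therefore named by symbol, no role is given, and neither segregation genes nor markers of oocyte, granulosa or other cells could be looked up. The tissue label was not checked against markers for the same reason. A piece of this region can carry granulosa cells beside the disc, and in such bulk samples fewer cells of a type and less RNA per cell cannot be told apart.

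The number of genes past an adjusted p of 0.05 depended on the tool, from 0 with edgeR and limma voom to 58 with DESeq2. Of 14112 genes tested with edgeR's quasi-likelihood fit of the 10 libraries, 0 (0%) passed after Benjamini-Hochberg adjustment, and the smallest adjusted p was 0.0658. Before adjustment, 793 genes (5.62%) had a p under 0.05, of which 280 (1.98%) were higher after corticosterone and 513 (3.64%) were lower. Over all genes tested the balance was the other way, with 7670 higher and 6442 lower (45.6% lower). Where no gene differs, an unadjusted p under 0.05 is expected in a share of 0.05 of the genes. The 5.62% found was close to that, so many of the 793 genes may not differ. Below an unadjusted p of 0.001 lay 2 higher and 36 lower genes, and at an adjusted p under 0.2 there were 0 higher and 20 lower. limma voom called 0 genes (0%), with 847 at an unadjusted p under 0.05. DESeq2 called 58 of the 11376 genes left by its own filter (0.51%), of which 55 were lower and 3 higher after corticosterone, and had 820 genes at an unadjusted p under 0.05.

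ENSGALG00000012704 had the smallest p of all genes and was lower after corticosterone. Its level in CPM, read counts brought to a common scaled library total, was 342, 291, 329, 282 and 332 in corticosterone replicates 1 to 5. In testosterone replicates 1 to 5 it was 559, 498, 488, 399 and 454. The highest corticosterone pool thus lay below the lowest testosterone pool, and the hormone groups did not overlap. This gene and those described next were picked by their p on these same pools, which favours such separation. Means were 315 ± 26.7 and 480 ± 58.8 CPM (SD, n = 5). The fitted log2 difference, corticosterone minus testosterone, was -0.61 ± 0.084 (SE) with an edgeR adjusted p of 0.0658. The 95% interval ran from -0.79 to -0.42. DESeq2 gave this gene an adjusted p of 2.44e-07 and limma voom 0.106. The oil controls were at 497, 389, 404, 305 and 397 CPM, a mean of 398 ± 68.4, midway between the hormones. Control replicate 4 lay within the corticosterone range, and control replicates 1 and 3 lay within the testosterone range.

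ENSGALG00000032413 came next, also lower after corticosterone. It was at 294, 276, 323, 264 and 326 CPM in corticosterone replicates 1 to 5. The testosterone pools were at 421, 415, 423, 393 and 358 CPM. The groups did not overlap, and testosterone replicate 5 came closest to the corticosterone pools. The log2 difference was -0.44 ± 0.070 (SE) at an edgeR adjusted p of 0.136, between means of 297 ± 27.8 and 402 ± 27.3 CPM (SD, n = 5), and the DESeq2 adjusted p was 1.47e-05. The controls spread more widely than either hormone group, at 502, 392, 307, 318 and 354 CPM. Their mean of 374 ± 78.8 CPM lay nearer to testosterone, while control replicate 1 exceeded all 10 hormone pools.

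On the side higher after corticosterone, ENSGALG00000009006 had the smallest p, rank 24 over all genes. This gene of low abundance was at 0.768, 0.572, 0.519, 0.583 and 0.687 CPM in corticosterone replicates 1 to 5. It was at 0.241, 0.301, 0.391, 0.238 and 0.309 CPM in testosterone replicates 1 to 5. These levels rest on 15 to 25 reads per corticosterone library and 4 to 10 per testosterone library. All corticosterone pools lay above all testosterone pools, and the controls, at 0.405 to 0.542 CPM, had their mean of 0.456 ± 0.051 CPM in the gap. The log2 difference was 1.09 ± 0.236 (SE) at an edgeR adjusted p of 0.236, with a 95% interval from 0.58 to 1.59. DESeq2 gave an unadjusted p of 0.00324 and, after its own filter, no adjusted p.

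ENSGALG00000041477, rank 33, was higher after corticosterone by a small amount in every pool. Corticosterone replicates 1 to 5 were at 158, 146, 147, 155 and 146 CPM. Testosterone replicates 1 to 5 were at 121, 134, 130, 130 and 137 CPM. The groups did not overlap, although their means of 150 ± 5.48 and 130 ± 6.15 CPM (SD, n = 5) stood 0.21 ± 0.048 (SE) apart on the log2 scale, with an adjusted p of 0.301 from edgeR and 0.0231 from DESeq2. The controls ran from 125 to 142 CPM, all below the lowest corticosterone pool, with a mean of 137 ± 6.72 CPM.

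**Figure D1:**
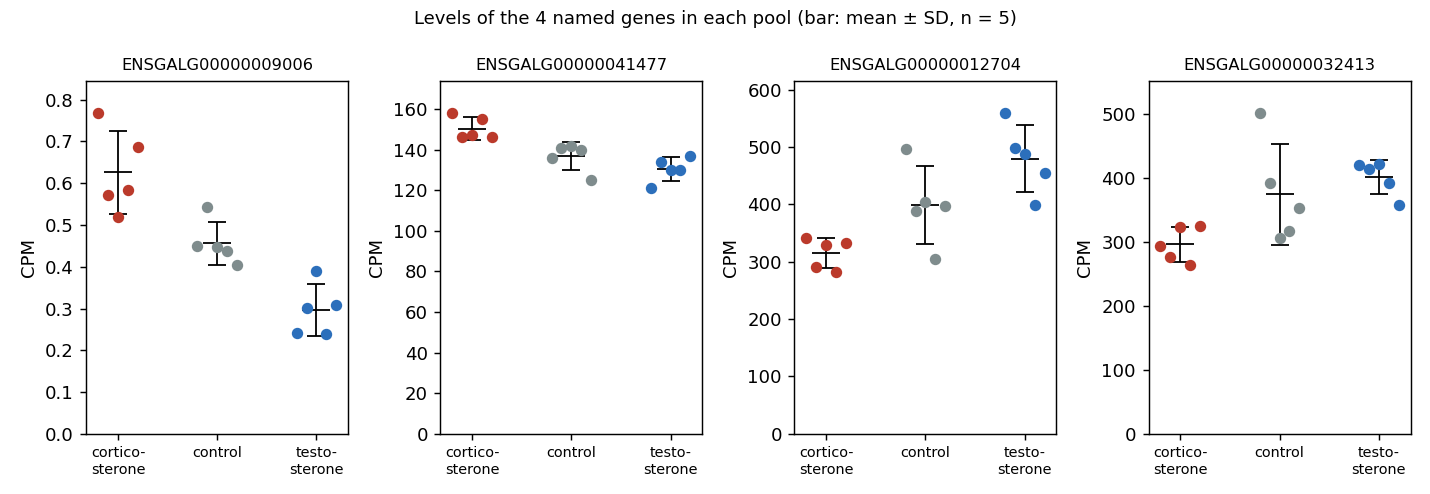
Level in CPM (vertical axis, from 0) of the 4 genes described above in each pool, by group; points are pools in the order of their replicate number and bars are mean ± SD (n = 5). In each of them the corticosterone and testosterone pools do not overlap, as in 158 of all 14112 genes (1.12%), and the control mean lies between. A share of 0.00794 of genes is expected without overlap where no gene differs. The 4 genes were picked by their p on these same hormone pools, so such separation largely follows from the choice. A wide gap also leaves more room for the control mean, which lies between in 33% of all higher and 31.3% of all lower genes.

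The genes that differed most were described further as the 50 of smallest p in each direction. The 50 lower after corticosterone had unadjusted p between 4.67e-06 and 0.00153 and a median log2 fold change of -0.38, a 1.30-fold difference, with a range from -0.73 to -0.19. Their median level was 44.5 CPM, with 32 genes at 10 to 100 CPM, 11 above and 7 at 1 to 10 CPM. The 50 higher genes had larger p, between 0.000401 and 0.0125, and a similar median log2 fold change of 0.39 at a median level of only 8.14 CPM. Among them 12 genes were under 1 CPM, against 0 of the 50 lower genes. The 2 sets thus differed in abundance more than in the size of the difference. Values of all corticosterone and all testosterone pools did not overlap in 40 of the 50 lower and 18 of the 50 higher genes, where 158 of all 14112 genes (1.12%) had that property, 58 (0.411%) higher and 100 (0.709%) lower (115 and 72 with total-count scaling). These genes were chosen by their p on the same pools, so a high share without overlap follows from the choice. Where no gene differs, a share of 0.00794 of genes is expected without overlap, from 1 of the 252 assignments in each direction. The 58 higher genes were close to that share for their direction, so many of them may not differ. The 100 lower genes exceeded it, but with total-count scaling 72 were lower and 115 higher. DESeq2 called 49 of the 50 lower and 3 of the 50 higher genes, where it called 58 of 11376 genes (0.51%) in all. The 50 were chosen by edgeR p on the same counts, so these shared calls are no independent support.

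The oil controls did not enter the choice of these genes, and their mean was placed on a scale where 0 is the corticosterone mean and 1 the testosterone mean of log2 CPM. Among the 50 lower genes the control mean lay between the hormones in 44, above both in 4 and below both in 2. Among the 50 higher genes it lay between in 46, above in 3 and below in 1. Over all genes tested the control mean was between the hormones in 33.0% of those higher and 31.3% of those lower after corticosterone. A gene picked for a wide gap leaves more room between the hormones, so a larger share is not by itself a property of these genes. In the lower genes the control lay closer to testosterone, with a median position of 0.746 (quartiles 0.486 and 0.847), and 33 of the 44 genes between were nearer to testosterone. In the higher genes the median position was 0.514 (quartiles 0.273 and 0.693), and 26 of 46 were nearer to testosterone. Over all genes tested the median position was 0.773 in those lower and 0.72 in those higher after corticosterone. Of those between, 1186 of 2018 lower and 1337 of 2534 higher genes were nearer to testosterone. A median position nearer to testosterone was thus not particular to the 50 lower genes. All 5 controls were clear of all corticosterone pools in 3 of the 50 lower and 4 of the 50 higher genes, and clear of all testosterone pools in 3 and 2. No gene of either set had controls clear of both hormones. Over all genes tested the controls were clear of corticosterone in 75 of 6442 lower and 102 of 7670 higher genes. They were clear of testosterone in 51 and 37 of these, and clear of both hormones in 4 and 3.

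**Figure D2:**
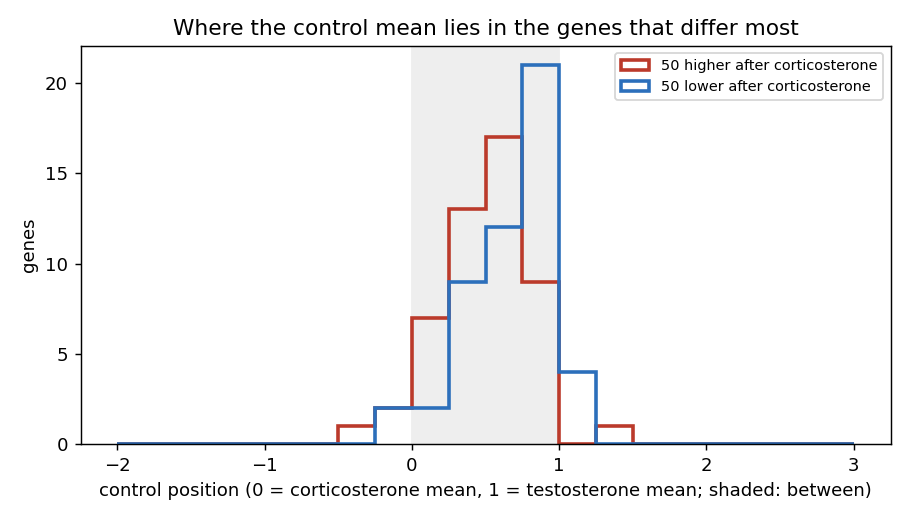
Number of genes (vertical axis) by the position of the control mean (horizontal axis, 0 for the corticosterone mean and 1 for the testosterone mean of log2 CPM) for the 50 genes of smallest p in each direction; the shaded band marks positions between the hormones. The control mean falls in the band in 44 of the 50 lower and 46 of the 50 higher genes, and the lower genes peak nearer to testosterone. Over all genes tested it does so in 31.3% of lower and 33% of higher genes, and a wide gap leaves more room between. Over all genes tested the median position is also nearer to testosterone, 0.773 in lower and 0.72 in higher genes.

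The control level was placed in the same way for the wider set of 793 genes at an unadjusted p under 0.05. Of the 513 genes lower after corticosterone the control mean was between the hormones in 376, above both in 124 and below both in 13. In 282 of the 376 it was nearer to testosterone. Of the 280 higher genes it was between in 216, above both in 22 and below both in 42. Among genes outside the gap, the control thus lay beyond the testosterone level more often than beyond the corticosterone level in both directions. Over all tested genes with any lower value after corticosterone, 31.3% had the control between, 42.4% above both and 26.3% below both. Over all with any higher value, 33% had it between, 25.8% above and 41.1% below. The control thus lay beyond the testosterone level more often over all genes too, so that order was not particular to the 793 genes. Genes picked for a wide gap leave more room between.

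The differences were small in most genes. The median log2 fold change over all genes was 0.01 and the median of its size was 0.071, with 0.048 in genes over 100 CPM and 0.19 in genes under 1 CPM. For 82.3% of genes the 95% interval of the difference stayed under 1.5-fold in both directions, and for 96.4% under 2-fold. An interval that began past 1.2-fold was found in 10 higher and 18 lower genes, and one that began past 1.5-fold in 0 genes. The interval stayed under 1.5-fold in 97.1% of genes over 100 CPM and in 13.9% of those under 1 CPM. In genes of low abundance a difference of that size could thus often not be excluded with these libraries. Among genes at an unadjusted p under 0.05, 41 were more than 1.5-fold higher and 26 more than 1.5-fold lower after corticosterone. More than 2-fold there were 8 higher and 0 lower genes. These 8 genes had levels of 0.419 to 7.47 CPM with a median of 0.569 CPM. In 1 of them the hormone groups did not overlap, where 58 of all 14112 genes (0.411%) were higher without overlap. Reads in all pools of 1 hormone and in none of the other occurred in 3 genes for corticosterone and 1 for testosterone, with a mean count of at most 2.20.

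Among genes at an unadjusted p under 0.05, direction differed between abundance classes. Taking the 793 genes by class, those with a mean over 100 CPM comprised 150 lower and 15 higher members, whereas those under 1 CPM comprised 24 lower and 45 higher. Between these classes there were 95 higher and 92 lower genes at 1 to 10 CPM and 125 and 247 at 10 to 100 CPM. The classes held 2180 tested genes over 100 CPM, 6614 at 10 to 100, 3842 at 1 to 10 and 1476 under 1 CPM. Medians of the log2 fold change over whole classes were small, from -0.01 over 100 CPM to 0.05 under 1 CPM. A log2 measure of each library's tilt with abundance was -0.0916 and -0.119 in corticosterone replicates 1 and 2. In the other hormone pools it ran from -0.0112 to 0.0674, and its exact permutation p was 0.175 (adjusted 0.59). The 150 abundant lower genes had a median log2 fold change of -0.22, from -0.65 to -0.10. Their groups did not overlap in 26 genes, where 100 of all 14112 genes (0.709%) were lower without overlap. The 150 were chosen by p on the same pools, so a higher share follows from the choice. The control mean was between the hormones in 106 of the 150, above both in 44 and below both in 0. Over all lower genes tested it was between in 31.3%, above both in 42.4% and below both in 26.3%. Genes picked for a wide gap leave more room between. The 45 rare higher genes had a median log2 fold change of 0.69.

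**Figure D3:**
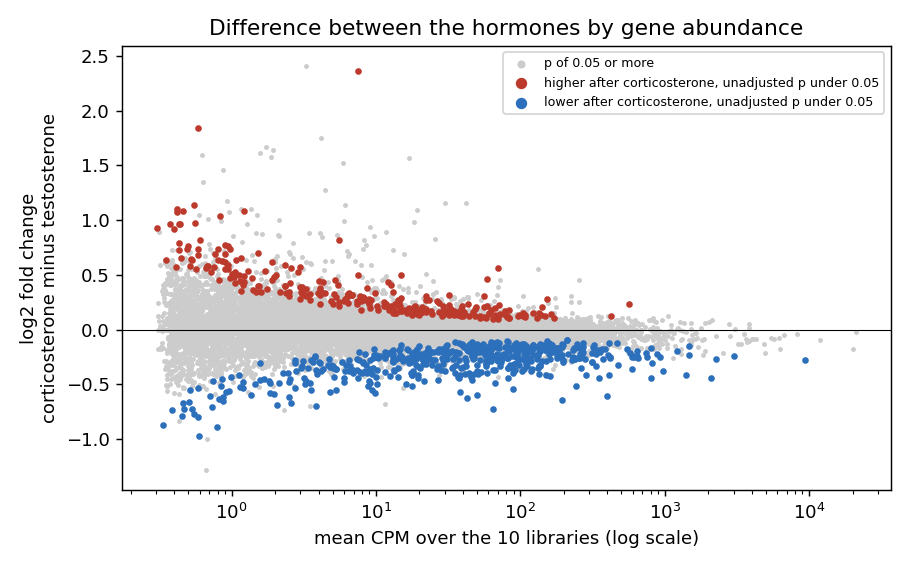
Log2 fold change, corticosterone minus testosterone (vertical axis), against mean CPM over the 10 libraries (horizontal axis, log scale) for 14112 genes; coloured points have an unadjusted p under 0.05. Among the coloured points lower genes dominate above 100 CPM, with 150 against 15 higher, and the largest fold changes upward are in rare genes.

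The split by direction depended on how libraries were scaled. With TMM 64.7% of the 793 genes were lower after corticosterone, with RLE 72.3% and with upper-quartile scaling 61.7%. Scaling by total count alone turned the overall split, to 610 higher and 356 lower genes (36.9% lower). Genes over 100 CPM at that p still had more lower than higher members under total count, 112 against 61. Those of 10 to 100 CPM turned to 315 higher and 157 lower. In the whole class over 100 CPM, the median log2 fold change was -0.01 with TMM and 0.03 with total count. Total-count scaling moved the median log2 fold change of all genes from 0.01 to 0.05. TMM factors averaged 1.015 ± 0.037 in corticosterone and 0.986 ± 0.015 in testosterone libraries (SD, n = 5). Under each of the 4 scalings genes under 1 CPM had more higher than lower members.

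**Figure D4:**
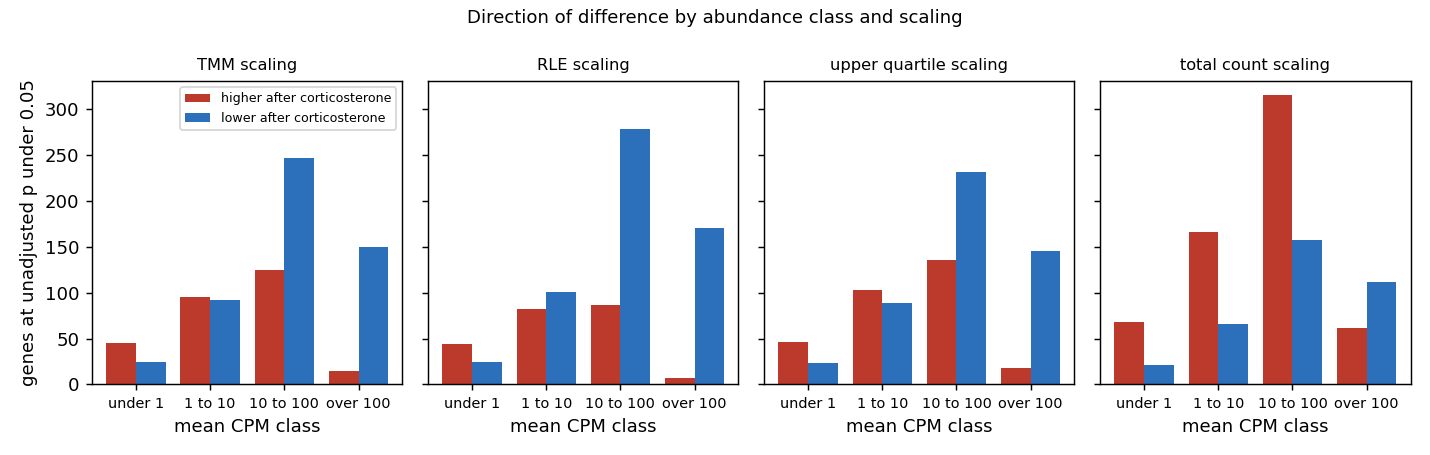
Number of genes at an unadjusted p under 0.05 (vertical axis) by class of mean CPM (horizontal axis) under 4 scalings; red bars are genes higher and blue bars genes lower after corticosterone. Above 100 CPM lower genes exceed higher ones in every panel, 150 against 15 with TMM and 112 against 61 with total count, while at 10 to 100 CPM the order turns with total count.

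Libraries held 24550108 to 33464398 counts, except testosterone replicate 5 with 12913729. No library-level value passed the threshold between the hormones over the 252 assignments of the 10 libraries, where the smallest possible exact two-sided permutation p is 0.00794. For 9 such values the raw p ran from 0.175 to 0.929, and the smallest adjusted p was 0.59. Scores on the first principal component, 29.8% of the variance, were 24.4 and 31.9 in corticosterone replicates 1 and 2 and 6.86 in testosterone replicate 2, against -17.6 to -2.26 in the other 7. A level of 4 times the median of the 10 libraries or more was reached by 25 genes in corticosterone replicate 1 and 19 in replicate 2, 28 genes in all, and 10 of the 28 did so in testosterone replicate 2 too. Summed, the 28 genes were at 632 and 538 CPM in those corticosterone replicates, 316 CPM in testosterone replicate 2 and 62.7 to 85.5 CPM in the other 7 libraries. Being picked for high values in these corticosterone pools, all 28 had higher means after corticosterone. Of them, 1 had an unadjusted p under 0.05, where 280 of all 14112 genes (1.98%) were higher at that p. Their lowest edgeR adjusted p was 0.817, and 0 of the 28 were among the 50 higher genes. Picking genes far above the median in single pools also favours a wide spread within a hormone group and so a weak p. These counts therefore do not set the 28 apart from the rest. The biological coefficient of variation was 12.2% among corticosterone pools and 9.36% among testosterone pools, and 9.50% among corticosterone pools without replicates 1 and 2. In the typical gene the spread was nearly equal, with a median SD of log2 CPM of 0.133 after corticosterone and 0.13 after testosterone. The SD was larger after corticosterone in 51.4% of genes.

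The pools of a hormone did not sit equally far from the other hormone. Over the 100 genes that differed most, the median position of corticosterone replicates 1 to 5 on the scale from 0 to 1 was -0.139, -0.334, 0.212, 0.016 and 0.312. Testosterone replicates 1 to 5 stood at 1.05, 0.942, 1.01, 1.09 and 0.944, a narrower band. Corticosterone replicate 5 was the corticosterone pool closest to testosterone in 23 of the 50 lower genes, and testosterone replicate 5 the testosterone pool closest to corticosterone in 27. In the 50 higher genes, corticosterone replicate 3 came closest in 21 and testosterone replicate 2 in 16. The controls stood at 0.837, 0.569, 0.365, 0.381 and 0.734, all between the hormone means. Unlike the hormone pools, the controls had no part in the choice of these genes. In the 50 lower genes alone they ran from 0.312 in replicate 3 to 1.21 in replicate 1, so the control level of these genes varied over most of the gap between the hormones.

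Positions over genes chosen with the same pool are drawn towards that pool's group. With the genes chosen again from the other 9 pools, the corticosterone replicates stood at 0.334, -0.187, 0.506, 0.485 and 0.801. The testosterone replicates then stood at 0.810, 0.633, 0.655, 0.768 and 0.435. All hormone pools but corticosterone replicate 2 thus lay between 0 and 1 when left out of the choice, as the controls did. A place between the hormones is therefore not by itself particular to the controls. Corticosterone replicates 1 and 2 stood on the corticosterone side, in 62 of 100 and 76 of 98 genes, and testosterone replicates 1 to 4 on the testosterone side, in 63 to 70 genes. Corticosterone replicates 3 and 4 stood near the middle. Corticosterone replicate 5 was nearer to testosterone, with 25 of 99 genes on the corticosterone side, and testosterone replicate 5, the library of lowest depth, was slightly nearer to corticosterone. This placement has no test and was chosen after the data were seen.

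**Figure D5:**
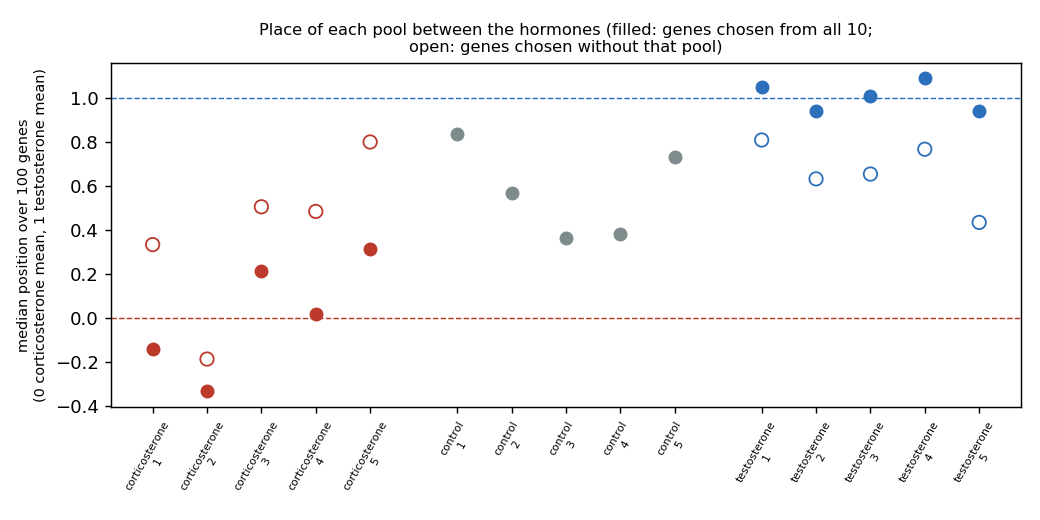
Median position of each pool (vertical axis, 0 for the corticosterone mean and 1 for the testosterone mean of log2 CPM) over the 100 genes that differed most; filled points use genes chosen from all 10 hormone pools and open points genes chosen without the pool shown. Without the pool in the choice, corticosterone replicate 5 moves from 0.312 to 0.801 and testosterone replicate 5 from 0.944 to 0.435.

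The number of calls moved with single libraries. Without corticosterone replicate 5, edgeR called 15 genes, all lower after corticosterone, with log2 fold changes from -0.66 to -0.34, and 1269 genes had an unadjusted p under 0.05. All 15 had an unadjusted p under 0.05 with 10 libraries, as 5.62% of all genes tested had. Of the 15, 12 were among the 58 DESeq2 calls, which were 0.51% of the genes left by its filter. Without testosterone replicate 4, edgeR called 1 gene, ENSGALG00000012704 at an adjusted p of 0.0102, and without any other single library it called 0. The 58 DESeq2 calls became 191 without corticosterone replicate 5, 57 of the 58 among them, 26 without testosterone replicate 4 and 81 without testosterone replicate 5. Without corticosterone replicates 1 and 2 together DESeq2 called 20 genes, 16 of them among the 58, and edgeR called 0. The 55 lower DESeq2 genes had a median DESeq2 log2 fold change of -0.38 (from -0.73 to -0.17). Their control mean lay between the hormones in 48, above both in 5 and below both in 2. Over all lower genes tested it lay between in 31.3%, and genes picked for a wide gap leave more room between. All 58 had an edgeR unadjusted p under 0.05, with edgeR adjusted p from 0.0658 to 0.523. The fits compared here used the same counts or most of them, so calls they share are largely fixed by that and are no independent support.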

How the data were processed

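The deposited file is a single table of raw gene counts for 15 libraries, as the authors made it. The labels' protocols name a strand-specific Illumina TruSeq kit, and the submitters' processing notes name TopHat2 2.0.14 and HTSeq 0.6.1p1. For the genome build, annotation release and strand setting, the sources used here give nothing, so reads of overlapping, antisense or near-identical genes may be misassigned. The 10 hormone libraries were fitted with edgeR 4.0.16 in R 4.3.3: filterByExpr, which kept 14112 genes with 99.95% of the counts, TMM scaling and a robust quasi-likelihood fit with 8 residual degrees of freedom. The test was checked on simulated counts, where recovery was required only for 2-fold changes in genes that were not rare. Most differences reported here were smaller, and that requirement did not cover them. CPM of the 4 named genes, group means and positions are scaled with TMM factors over all 15 libraries. Mean CPM over the 10 hormone libraries, used for abundance classes and median levels, takes factors over those 10. So do the counts of genes whose hormone groups do not overlap. Positions use log2(CPM + 0.5), and principal components log2 CPM with a prior count of 2. Standard errors and intervals come from the F statistic of that fit. All 45 pairs of hormone libraries differed beyond sampling noise (chi-square per degree of freedom of at least 7.55). This can tell separate libraries from repeated reads of the same library, but cannot show that pools are independent. Pools counted as replicates by their labels. DESeq2 1.42.0 and limma 3.58.1 were alternatives, with other scalings, filters, a replicate block and left-out libraries. The rule named the 2 genes of smallest p in each direction. Members, lists and tests were chosen with earlier results of these data known. The gene lists could not be applied, since 0 identifiers matched a symbol.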

Additional observations from a re-analysis of the deposited data

Results flagged for a closer look

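Among 35 groups of 5 values examined for 1 library far from the others, 4 held such a value, where chance gives about 1.75. Testosterone replicate 5 had the lowest total, 12913729 counts, the fewest genes detected, 17032, and the largest share in its most abundant gene, 2.51%. These are linked measures of 1 library. In testosterone replicate 2, 10 genes reached 4 times the median of the 10 libraries, and in each other testosterone library 0 did, so its gap is fixed by the zeros of the rest.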

How the results depend on the processing

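The count of 0 edgeR calls held in 17 of 24 alternatives. It became 1 at a threshold of 0.1, 3 without a low-count filter, 2 with sample weights in limma voom, 58 with DESeq2, 1 with the replicate block and 0 to 15 with 1 library left out, all of them lower after corticosterone except 3 of the DESeq2 calls. Nothing in the labels pairs pools of equal number. Correlations of the deviations in the 5 equal-number pairs ran from -0.147 to 0.228, and 2 of the 5 corticosterone pools correlated best with their own number. The replicate block raised the genes at an unadjusted p under 0.05 from 793 to 884. That count was 578 to 1269 with 1 library left out. The share lower after corticosterone was 36.9% with total-count scaling, the 1 of 23 alternatives to turn it. It was 72.3% with RLE, 72.2% with a strict filter (1 CPM or more in 5 libraries, mean count 20 or more), 73.4% with DESeq2, 60.6% with sample weights, 75.1% without corticosterone replicates 1 and 2, 75.4% without these and testosterone replicate 2, and 55.25% to 73.7% with 1 library left out. Genes without overlap numbered 426 and 681 in those reduced sets and 208 to 410 with 1 library left out, where fewer pools make separation easier; tools that leave the levels as they are give no other count. DESeq2 calls were 26 to 191 with 1 library left out and 20 without corticosterone replicates 1 and 2, settings chosen after the data were seen. The control lay between in 96% of the genes with 25 per direction, and in 77 to 95 of the 100 genes with 1 control left out. ENSGALG00000012704 passed 0.05 in 6 of 23 alternatives (adjusted p 2.44e-07 to 0.609), ENSGALG00000032413 in 4 of 23 and ENSGALG00000041477 in 1 of 23. ENSGALG00000009006 passed in 0 of 22, which include DESeq2, where it had no adjusted p. None of these genes changed sign. Causes of these shifts were not tested. What depth limits was not separated from the spread between pools; the 95% interval stayed under 1.5-fold in 13.9% of genes under 1 CPM and 97.1% of those over 100 CPM.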
